A study of Mus musculus with 6 samples.

Results

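The tumour necrosis factor (TNF) superfamily in fat stromal cells was followed here through 52 genes: its ligands, their receptors, the TRAF adaptors and 3 regulators of their signalling. The members were chosen by a rule on gene symbols, with earlier results of these data known, from 55011 genes counted. The rule took all symbols that begin with Tnfsf or Tnfrsf and a digit, and the adaptors Traf1 to Traf7. It also named Tnf, Lta, Ltb, Ltbr, Fas, Fasl, Cd40, Cd40lg, Ngfr, Eda2r, Tnfaip3, Birc2 and Birc3. Of the 52 members, 49 had a count in at least 1 library and 30 had counts high enough to be tested. The cells were stromal cells of mouse visceral fat, negative for the EGFP reporter of Il33 (genotype label Il33-EGFP-), taken per the design text from eWAT (most often short for epididymal white fat). Culture lasted 3 days in the presence of either phosphate-buffered saline (PBS, 3 libraries) or 10 nM irisin/HSP90α (3 libraries, below called irisin). Titles of the samples speak of irisin only, and the presence of HSP90α in PBS cultures is given by no label. The study asked whether this treatment moves adipocyte precursors towards stromal cells that act on immune cells. No label says that replicates came from different cultures or animals. The p-values below therefore measure only how far these libraries differ, which may be technical.

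TNF superfamily ligands are mostly trimeric proteins on or shed from the cell surface, and their receptors fall into those with a death domain, which can start apoptosis, those that bind TRAF adaptors directly, and decoys that bind ligand without passing on a signal. TRAF proteins, with the ubiquitin ligases cIAP1 (gene Birc2) and cIAP2 (gene Birc3), link the receptors to the NF-κB and MAP kinase pathways. A20 (gene Tnfaip3) removes and edits ubiquitin chains in the same complexes and is itself a classical NF-κB target, as is Birc3. In fat tissue, TNF from immune cells is known to act on adipocytes and their precursors and to hold back adipocyte differentiation.

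Library totals lay between 5271309 and 6745799 counts, so that 1 CPM (a count scaled to library size) stood on 5.17 to 6.89 counts. All 10 stromal markers, among them Pdgfra, Col1a1 and Dcn, were measured at a summed level of 38186 to 45709 CPM in PBS and 51468 to 56337 CPM in irisin. Among these markers 2 were higher and 3 lower with irisin. Counts of Pdgfra were higher in every irisin library than in any PBS library, and those of Lum, Dpt and Thy1 were lower. The collagen genes had the highest counts and so weighed most in the sum. T and NK cell markers summed to at most 2.72 CPM in any library, with Cd3e, Cd3g, Cd8a, Ncr1, Nkg7 and Cd2 at 0 in all 6, and B cell markers summed to at most 0.786 CPM. The pan-leukocyte gene Ptprc had at most 3 counts per library, while the myeloid list summed to 66.6 to 82.5 CPM in PBS and 62.4 to 87.2 CPM in irisin, mainly from Csf1r. Endothelial markers summed to 31.1 to 38.0 CPM in PBS and 19.9 to 27.0 CPM in irisin (1 marker lower), mainly from Tek. Pecam1, Cdh5, Kdr and Emcn had at most 6 counts per library. Vwf, also endothelial, went the other way, with 0, 2 and 0 counts in PBS and 5, 8 and 8 in irisin. Mesothelial markers summed to 35.0 to 41.5 CPM in PBS and 38.6 to 49.96 CPM in irisin (0 lower), mainly from Wt1. Mural ones summed to 46.8 to 64.6 and 34.1 to 50.1 CPM (2 lower). Mature adipocyte markers moved with the treatment: 7 of 7 tested were lower with irisin, the summed level was 663 to 1107 CPM in PBS and 148 to 203 CPM in irisin, and Lep was at 0 in all 6 libraries. What part this had in the results below was not tested, and in such bulk samples fewer cells of a type and less RNA per cell cannot be told apart. PBS replicate 3 and irisin replicate 1 stood apart from the other 4 libraries on the second principal component. Several results, though not all, in which they matter are given with and without them.

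With irisin, 5 of the 30 tested members rose and 2 fell, and 23 did not pass. The rises were in Tnfaip3, Birc3, Fas, Traf3 and Tnfsf13b, and the falls in Tnfrsf11b and Tnfrsf12a. Over all 12296 genes tested, 4.2% rose and 3.22% fell (7.42% in all), while among the tested members 16.7% rose and 6.67% fell. The members were chosen with earlier results of these data known, so the member shares describe this list only. Of the 5 rises, 2 were in the 3 regulators, which the rule adds by name, and Fas is also a gene added by name. The median log2 fold change (LFC, irisin against PBS) was 0.16 over the 30 members and -0.01 over all genes. In 15 members the 3 irisin values did not overlap the 3 PBS values, 11 of them above and 4 below. This is 50% of the tested members, against 23.6% of all genes tested (12.1% above and 11.5% below). The limit of the low-count filter, 1.59 CPM, was exceeded in all 6 libraries by 28 of the 30 members. Cd40 and Tnfsf15 exceeded it in some libraries of each group. Tnfsf15, 1 of the 4 members below, exceeded it in all PBS libraries but not in irisin replicate 2 (7 counts). Adjusted p-values come from the quasi-likelihood test of edgeR, adjusted by Benjamini-Hochberg over all genes tested, and LFC values carry their standard error. The call count was the same with RLE and with upper quartile factors. Without PBS replicate 3 and irisin replicate 1, a choice made after the data were seen, 7 members were higher and 3 lower, and all 7 called members were among these 10 (background 7.18% higher, 6.34% lower and 13.5% in all). With the replicate number as a block, 4 members were higher and 1 lower, without Tnfsf13b and Tnfrsf12a (background 3.43%, 2.19% and 5.62%). In a test against a 1.5-fold change, 3 were higher and 1 lower (background 1.34%, 0.878% and 2.22%). On simulated counts with the spread of each gene in this comparison the test recovered 38% of 1.5-fold changes and 76% of 2-fold changes. A member that did not pass may thus still have changed by such an amount. The changed genes were drawn from all genes tested, so recovery at the levels of the members was not measured. Each gene was simulated on its own, without a shift of PBS replicate 3 and irisin replicate 1 shared by many genes. Of the 171 calls on these simulated counts, 15 were of unchanged genes.

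**Figure D1:**
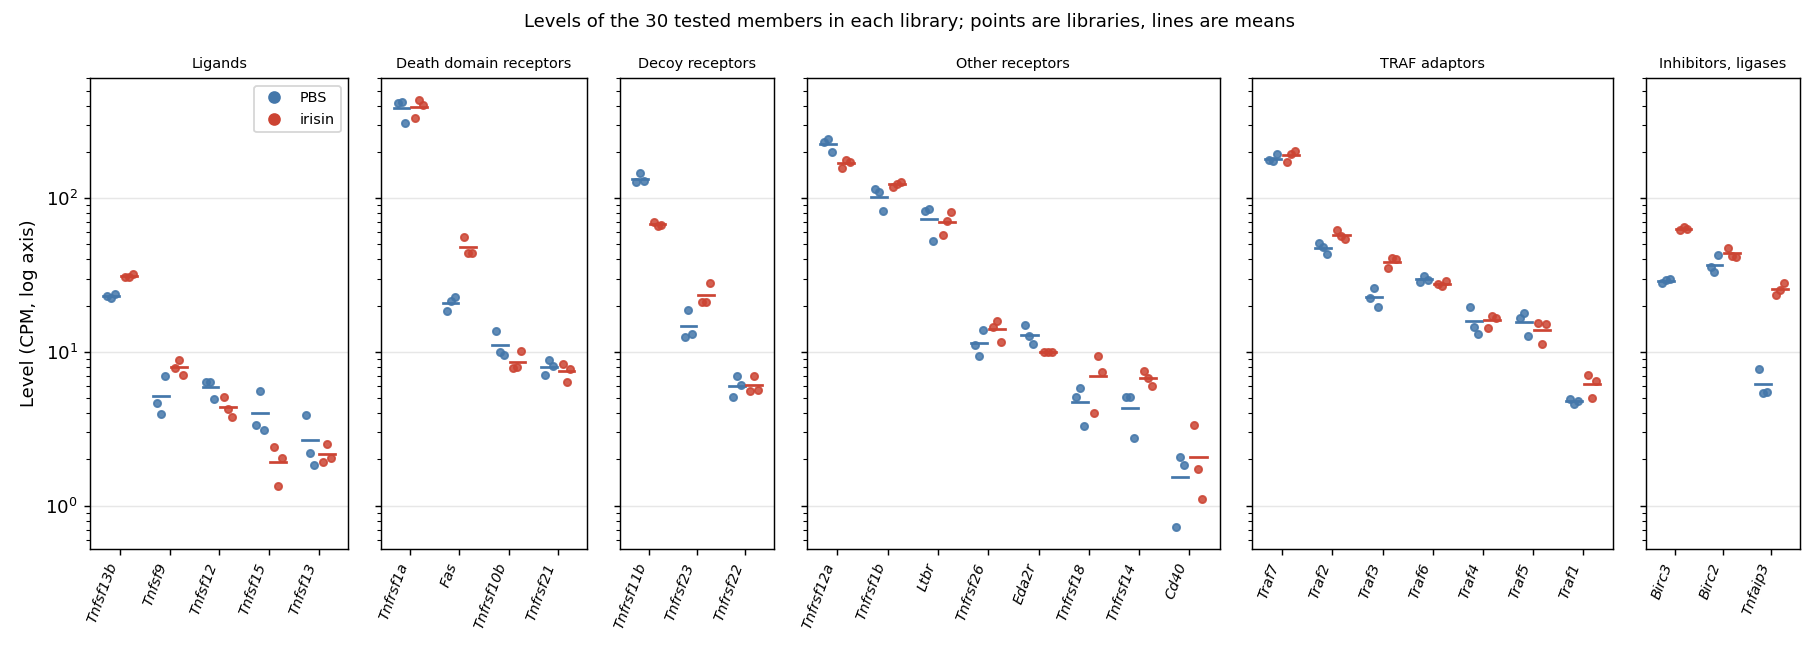
Levels in CPM on a log axis of the 30 tested members, by role; each point is a library (3 PBS, 3 irisin) and each line a group mean. Tnfaip3, Birc3 and Fas lie higher in all 3 irisin libraries, Tnfrsf11b and Tnfrsf12a lower, and Tnfrsf1a overlaps between the groups.

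The start regions of all members with a window, called or not, were searched for κB motifs, the DNA elements bound by NF-κB, in windows from 250 bases before to 50 bases after the gene start from RefSeq (GRCm38.p6). The letters searched on both strands were GGGANTTTCC, GGGGNTTTCC, GGGANTTCCC and GGGGNTTCCC, which can overlap each other. Of 42 members with a window, 4 held a match (Tnfaip3, Traf3, Tnfrsf9 and Ltb), or 9.52%, against 1.85% of all 27025 gene symbols with a window. By window, a match stood in 4 of the 48 member windows (8.33%) and in 1.62% of all windows of 300 bases. In Tnfaip3, Traf3 and Tnfrsf9 the matched letters were the same, GGGGATTTCC, read on the minus strand of the window in Tnfaip3, and Ltb held GGGACTTTCC. Of the 4 windows with a match, 3 are shown with the match in capitals, picked with their values known. They belong to the member that rose most, the TRAF that rose and Tnfrsf9, an untested receptor with 1 count in PBS and 13 in irisin. The window not shown is that of Ltb, which was untested and had 2 counts in PBS and 1 in irisin.
Tnfaip3, chr10:19015361-19015660, minus strand: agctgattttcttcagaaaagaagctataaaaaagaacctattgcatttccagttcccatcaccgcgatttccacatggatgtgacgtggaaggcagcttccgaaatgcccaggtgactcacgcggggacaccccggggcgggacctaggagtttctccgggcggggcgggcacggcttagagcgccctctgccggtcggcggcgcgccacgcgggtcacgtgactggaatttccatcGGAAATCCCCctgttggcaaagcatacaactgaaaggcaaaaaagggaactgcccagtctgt
Traf3, chr12:111166120-111166419, plus strand: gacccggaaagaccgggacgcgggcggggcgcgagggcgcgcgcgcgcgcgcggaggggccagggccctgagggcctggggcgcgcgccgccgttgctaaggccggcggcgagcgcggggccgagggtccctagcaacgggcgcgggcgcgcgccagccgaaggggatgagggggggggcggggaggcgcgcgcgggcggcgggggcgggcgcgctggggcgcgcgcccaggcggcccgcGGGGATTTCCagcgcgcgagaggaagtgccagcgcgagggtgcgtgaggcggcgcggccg
Tnfrsf9, chr4:150927749-150928048, plus strand: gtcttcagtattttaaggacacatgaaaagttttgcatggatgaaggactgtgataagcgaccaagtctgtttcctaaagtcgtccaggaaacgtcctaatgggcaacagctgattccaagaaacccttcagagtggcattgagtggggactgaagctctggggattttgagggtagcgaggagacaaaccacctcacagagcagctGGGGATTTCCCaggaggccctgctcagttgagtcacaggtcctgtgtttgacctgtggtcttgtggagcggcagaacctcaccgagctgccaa
The match began 12 bases before the RefSeq start of its window in Tnfaip3, 10 in Traf3 and 43 in Tnfrsf9. In Tnfaip3 and Tnfrsf9 this start lies inside the gene as annotated in GENCODE M21. In Tnfrsf9 the capitals cover 2 matches that overlap, and another window of that gene and of Tnfaip3 held none. Birc3, Fas, Tnfsf13b and Tnfrsf12a had windows without these letters, which says only that they are not in these 300 bases. Tnfrsf11b had no window. Of the 6 called members with a window, 2 held a match, Tnfaip3 and Traf3. Among tested genes with a window, 2.34% held a match, while 8.7% of 391 called higher and 0.697% of 287 called lower did. A match is a string of letters and does not show that a factor was bound there.

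Ligands were low or hardly detected. Of the 16 ligand genes 5 were tested and 1 rose, Tnfsf13b, which encodes BAFF, a survival factor for B cells that stromal cells can make. It stood at 22.9, 22.3 and 23.7 CPM in PBS replicates 1, 2 and 3 and at 30.9, 30.5 and 32.1 CPM in irisin replicates 1, 2 and 3. The groups did not overlap and each was narrow, and the rise was 1.36-fold (LFC 0.44 ± 0.12, adjusted p = 0.0477). This call sat at the threshold: it was lost when PBS replicate 1 or 2 or any irisin library was left out (adjusted p 0.109 to 0.178), with DESeq2 (0.121), with total counts alone (0.101), with the replicate number as a block (0.127), with no low-count filter (0.132) and against a 1.5-fold change. It held without PBS replicate 3 (0.0374) and without both PBS replicate 3 and irisin replicate 1 (0.0264). The receptors of BAFF, Tnfrsf13b, Tnfrsf13c and Tnfrsf17, had 2 counts among them in all 6 libraries together. Tnfsf13b lies on chromosome 8 (10006467 to 10039072, plus strand).

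Among the other tested ligands, Tnfsf9, the 4-1BB ligand, a costimulator of T cells, stood at 4.64, 3.96 and 6.996 CPM in PBS and 7.84, 8.89 and 7.07 CPM in irisin (LFC 0.62 ± 0.26, adjusted p = 0.210). The lowest irisin value was just above the highest PBS value, in PBS replicate 3. Tnfsf9 passed without PBS replicate 3 (adjusted p = 0.0462), without PBS replicate 3 and irisin replicate 1 (0.0487) and with limma-voom (0.0499). Tnfsf15, which encodes the vascular and T cell cytokine TL1A, stood at 3.34, 5.55 and 3.13 CPM in PBS and 2.40, 1.35 and 2.04 CPM in irisin (LFC -1.03 ± 0.36, adjusted p = 0.124). All of its irisin values were below its PBS values, on 7 to 15 counts per irisin library, and it passed without the pair of libraries that stood apart (adjusted p = 0.0377). Tnfsf12, which encodes TWEAK, had means of 5.90 ± 0.803 CPM in PBS and 4.38 ± 0.684 CPM in irisin (SD, n = 3 each, adjusted p = 0.420), and Tnfsf13, which encodes the B cell factor APRIL, 2.66 ± 1.11 and 2.16 ± 0.313 CPM (adjusted p = 0.744). Tnfsf12 and Tnfsf13 are neighbours on chromosome 11, 0.465 kb apart, and share 731 and 983 exon bases with a read-through gene on their strand. Tnfsf13 also shares 221 with its antisense gene, and Tnfsf9 shares 192 with a gene on the opposite strand. How the counting assigned reads in the bases shared on the same strand was not measured. Whether it used strand, which bears on the bases shared with the opposite strand, is not given in the sources used here.

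Tnf itself was near the limit of detection. It had 4, 3 and 2 counts in PBS replicates 1, 2 and 3 and 3, 1 and 11 in irisin replicates 1, 2 and 3. Irisin replicate 3 held most of the irisin counts, and the ratio of summed counts, irisin over PBS and scaled for library size, was 1.75 with an exact 95% interval of 0.716 to 4.52. Intervals of this kind cover counting error only. The neighbours of Tnf on chromosome 17, the lymphotoxin genes Lta and Ltb, had 2 and 3 counts in all libraries together. Tnfsf11, which encodes the osteoclast factor RANKL, had 5, 0 and 1 counts in PBS and 2, 5 and 6 in irisin (ratio 2.27, 0.805 to 7.28). Tnfsf10 (TRAIL) had 7 counts in all, Fasl 1 and Tnfsf14 (LIGHT) 4, and Cd40lg and Tnfsf4 (the OX40 ligand) had 0 in all 6 libraries. A count of 0 allows a level of up to 0.435 to 0.580 CPM, at 3 counts per library. The remaining ligands, Tnfsf8 and Tnfsf18, had at most 5 counts per library.

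Of 6 receptors with a death domain, 4 were tested and Fas rose. Fas, whose product starts apoptosis on binding Fas ligand, stood at 18.4, 21.5 and 22.6 CPM in PBS and at 56.0, 44.1 and 44.2 CPM in irisin. Every irisin value lay far above the PBS values, with irisin replicate 1 the highest, and the rise was 2.31-fold (LFC 1.21 ± 0.14, adjusted p = 9.99e-05). Leaving out irisin replicate 1 gave LFC 1.08 (adjusted p = 0.000464). Fas lies on chromosome 19 (34290666 to 34327772, plus strand).

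Tnfrsf1a, the gene of TNF receptor 1 and the main receptor for soluble TNF, had the highest level per length of all members in both groups and did not pass. Its values were 418, 423 and 309 CPM in PBS and 334, 436 and 401 CPM in irisin (LFC 0.02 ± 0.13, adjusted p = 0.958). The lowest value of each group was in PBS replicate 3 and irisin replicate 1, and without these libraries LFC was -0.01 (adjusted p = 0.976). Tnfrsf10b, the mouse TRAIL receptor, had 11.1 ± 2.24 CPM in PBS and 8.66 ± 1.35 CPM in irisin (SD, n = 3 each), and Tnfrsf21 (death receptor 6) 8.03 ± 0.883 and 7.47 ± 0.993 CPM, and neither passed (adjusted p = 0.438 and 0.886). Ngfr, the p75 neurotrophin receptor, was under the filter with 10, 11 and 9 counts in PBS and 6, 4 and 4 in irisin. All of its irisin counts were below its PBS counts (ratio 0.489, exact 95% interval 0.240 to 0.951), while with no low-count filter edgeR gave adjusted p = 0.653. Tnfrsf25 had 4 counts in all.

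Of the 3 decoy receptors, all tested, 1 fell. Tnfrsf11b, the gene of osteoprotegerin, which captures RANKL and TRAIL, stood at 127, 145 and 129 CPM in PBS and at 70.4, 65.7 and 66.8 CPM in irisin. The groups were far apart and irisin was 1.97-fold lower (LFC -0.98 ± 0.10, adjusted p = 1.92e-05). It was called under all 18 alternatives that were run, among them the looser threshold of 0.10, which could not lose a call. Its 2 ligands and the signalling receptor of RANKL were hardly detected beside it: Tnfrsf11a (RANK) had 4 counts in all libraries. Tnfrsf11b lies on chromosome 15 (54250619 to 54278484, minus strand).

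Tnfrsf23, a mouse decoy receptor for TRAIL, stood at 12.5, 18.7 and 13.1 CPM in PBS and 20.96, 21.1 and 28.1 CPM in irisin. All irisin values were above those of PBS, with PBS replicate 2 the closest, and the difference did not pass (LFC 0.67 ± 0.19, adjusted p = 0.0551). It passed with DESeq2 (adjusted p = 0.0453), with limma-voom (0.0254), with no low-count filter (0.00765), without PBS replicate 2 (0.0227) and without PBS replicate 3 and irisin replicate 1 (0.0192). Its neighbour and close relative Tnfrsf22, also a TRAIL decoy, had 6.04 ± 0.947 CPM in PBS and 6.07 ± 0.768 CPM in irisin (adjusted p = 0.998). Tnfrsf26, the third gene of this cluster on chromosome 7, had 11.4 ± 2.24 and 14.01 ± 2.16 CPM (adjusted p = 0.510). These 3 genes are similar in sequence, and how the counting divided shared reads among them was not measured. Tnfrsf23 also shares 164 exon bases with a gene on the opposite strand.

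Of the 16 other receptors, 8 were tested and Tnfrsf12a fell. Tnfrsf12a encodes Fn14, the receptor of TWEAK, which is known in tissue injury and holds back adipocyte and muscle differentiation in some settings. It stood at 230, 243 and 200 CPM in PBS and at 158, 177 and 171 CPM in irisin, so that all irisin values lay below the lowest PBS value, that of PBS replicate 3. The fall was 1.33-fold (LFC -0.41 ± 0.09, adjusted p = 0.0163). The call was lost without PBS replicate 1 or 2 or any of the irisin replicates (adjusted p 0.0552 to 0.0888). It held without PBS replicate 3 (adjusted p = 0.000338) and without PBS replicate 3 and irisin replicate 1 (2.87e-06). With the replicate number as a block it was also lost (0.0532). Tnfrsf12a lies on chromosome 17 (23675445 to 23677468, minus strand).

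Tnfrsf1b, the gene of TNF receptor 2, which binds membrane TNF best and lacks a death domain, stood at 115, 109 and 81.9 CPM in PBS and 118, 124 and 128 CPM in irisin. The groups did not overlap but nearly touched, and the difference did not pass (LFC 0.27 ± 0.12, adjusted p = 0.246). Ltbr, the lymphotoxin β receptor, which also holds back adipocyte differentiation, stood at 82.9, 85.1 and 52.5 CPM in PBS and 57.9, 71.5 and 81.2 CPM in irisin. Its groups overlapped widely, with PBS replicate 3 and irisin replicate 1 lowest (LFC -0.07 ± 0.19, adjusted p = 0.911). Eda2r, the receptor of ectodysplasin A2, stood at 14.9, 12.7 and 11.2 CPM in PBS and 9.92, 10.05 and 10.1 CPM in irisin, all irisin values below PBS (LFC -0.38 ± 0.18, adjusted p = 0.295). Tnfrsf14 (HVEM), which binds LIGHT, had 4.30 ± 1.34 and 6.75 ± 0.775 CPM (adjusted p = 0.238), Tnfrsf18 (GITR) 4.75 ± 1.31 and 6.95 ± 2.76 CPM (adjusted p = 0.469), and Cd40, the receptor of the T cell protein CD40 ligand, 1.54 ± 0.716 and 2.07 ± 1.17 CPM (adjusted p = 0.743). Exons of Tnfrsf18 share 414 bases with a gene on the opposite strand.

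Among receptors under the filter, Tnfrsf9 (4-1BB), the receptor of the Tnfsf9 product, had 0, 1 and 0 counts in PBS and 7, 3 and 3 in irisin. Its groups did not overlap, and the ratio of summed counts was 13.6 with an exact 95% interval of 2.05 to 579. With no low-count filter edgeR gave adjusted p = 0.190. Tnfrsf8 (CD30) had 3 counts in PBS and 10 in irisin (ratio 3.49, 0.899 to 19.7), Tnfrsf4 (OX40) 5 and 10, and Tnfrsf19 (TROY) 9 and 12, each summed over 3 libraries. With no low-count filter, edgeR called none of the 22 members that had been left out of the test, of which 3 had no count at all, and the lowest adjusted p was that of Tnfrsf9. The antisense RNA gene Tnfsf13os, which the symbol rule also takes in, had 7 and 11 counts.

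**Figure D2:**
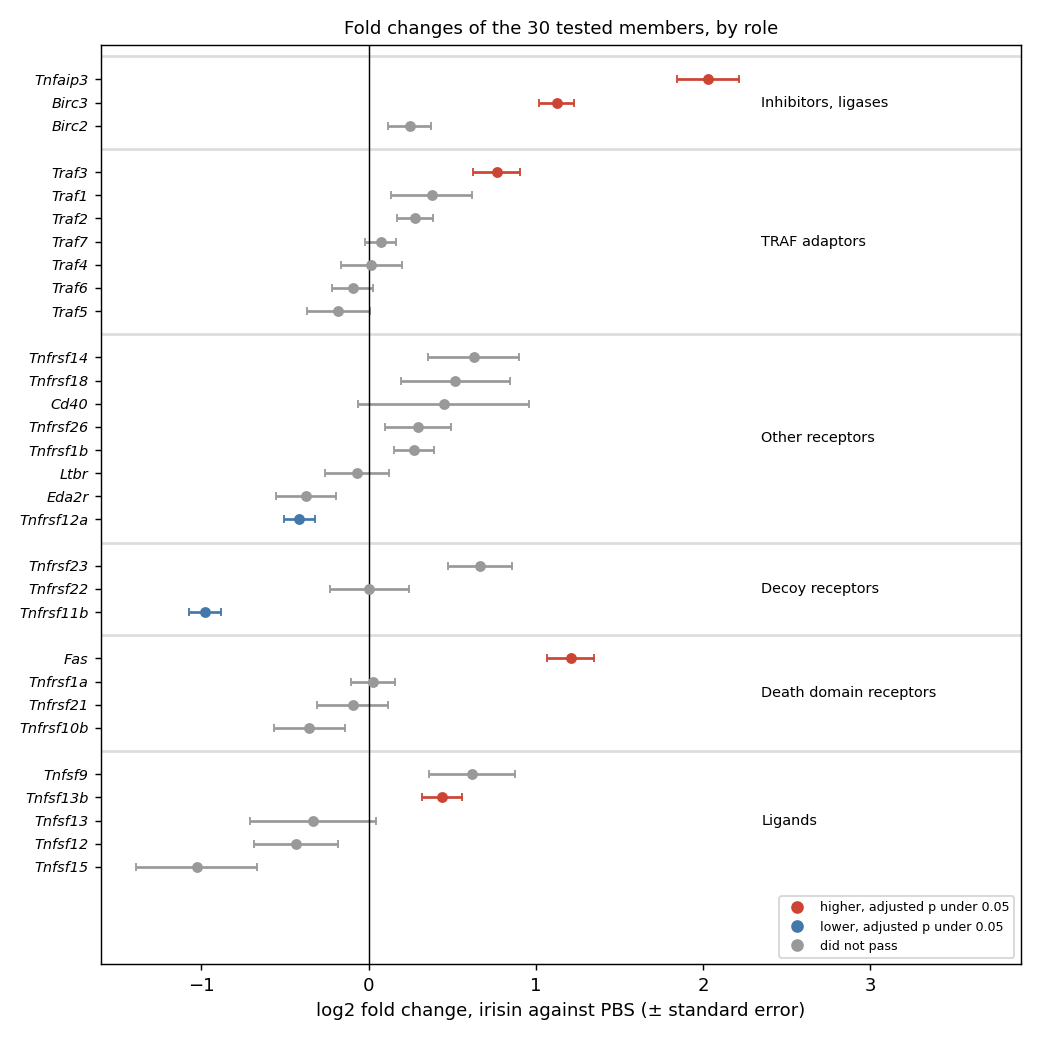
Log2 fold change of irisin against PBS with its standard error for each of the 30 tested members, grouped by role; red marks the 5 higher and blue the 2 lower members at adjusted p under 0.05. Tnfaip3 has the highest fold change, at 2.03, and of the 2 lower members Tnfrsf11b, at -0.98, lies further from 0 than Tnfrsf12a, at -0.41.

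All 7 TRAF adaptors were tested and 1 rose. Traf3, whose protein with TRAF2 and the cIAPs marks the kinase NIK for degradation and so restrains the alternative NF-κB pathway, stood at 22.3, 26.1 and 19.5 CPM in PBS and 35.2, 41.0 and 39.9 CPM in irisin. The groups were well separated and the rise was 1.70-fold (LFC 0.77 ± 0.14, adjusted p = 0.00355). It was called in 17 of 18 alternatives, all but the test against a 1.5-fold change. Traf2, the main adaptor of both TNF receptors, stood at 51.2, 47.9 and 43.6 CPM in PBS and 61.6, 57.0 and 54.5 CPM in irisin, all above PBS, but did not pass (LFC 0.28 ± 0.11, adjusted p = 0.185). Traf1, which can be induced by NF-κB, had 4.77 ± 0.170 and 6.17 ± 1.04 CPM (adjusted p = 0.478). Traf7, the TRAF with the highest level per length, an atypical one that binds no TNF receptor directly, had 181 ± 10.2 and 189.9 ± 15.7 CPM (adjusted p = 0.778). Traf6, which serves the IL-1 and Toll-like receptors as well, had 29.8 ± 1.49 and 27.8 ± 1.13 CPM (adjusted p = 0.779). Traf5 had 15.8 ± 2.72 and 13.9 ± 2.32 CPM (adjusted p = 0.710), and Traf4 15.8 ± 3.50 and 16.1 ± 1.48 CPM (adjusted p = 0.980). Exons of Traf7 share 267 bases with a gene on the same strand, and those of Traf5 share 205 with one on the opposite strand. Traf3 lies on chromosome 12 (111166370 to 111267153, plus strand).

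Among the 3 regulators, 2 rose, and these had the lowest p-values of all members. Tnfaip3 stood at 7.69, 5.39 and 5.52 CPM in PBS and at 23.4, 25.3 and 28.1 CPM in irisin. Every irisin value lay far above every PBS value, and the rise was 4.09-fold (LFC 2.03 ± 0.19, adjusted p = 1.20e-05). Birc3 stood at 27.9, 29.5 and 29.6 CPM in PBS and 62.1, 64.5 and 63.0 CPM in irisin. Its groups were narrow and far apart, with a rise of 2.18-fold (LFC 1.12 ± 0.11, adjusted p = 1.42e-05). Birc2, which encodes the closely related cIAP1 and lies 11.6 kb from Birc3 on chromosome 9, stood at 35.4, 33.1 and 42.5 CPM in PBS and 47.5, 42.1 and 41.6 CPM in irisin. These overlapped, with PBS replicate 3 within the irisin range, and Birc2 did not pass (LFC 0.25 ± 0.13, adjusted p = 0.344). Tnfaip3, Birc3, Fas and Tnfrsf11b were called under all 18 alternatives, also against a 1.5-fold change. Tnfaip3 lies on chromosome 10 (19000910 to 19015657, minus strand) and Birc3 on chromosome 9 (7848699 to 7873186, minus strand). Exons of these 4 genes, of Tnfrsf12a, of Traf3 and of Tnfsf13b overlap no other annotated gene in GENCODE M21.

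Signalling genes beside or downstream of the receptors, a list of 46 genes that are no members, mostly did not pass. Of 44 tested, 2 rose and none fell (4.55% called, against 7.42% of all genes tested), with a median LFC of 0.03. Tnip1, whose protein binds A20 and limits NF-κB with it, stood at 47.6, 40.6 and 41.4 CPM in PBS and 93.8, 113 and 115 CPM in irisin. It rose 2.48-fold in the same direction as its partner Tnfaip3 (LFC 1.31 ± 0.12, adjusted p = 9.50e-06). Tifa, an adaptor that activates TRAF6 and TRAF2, stood at 8.42, 8.08 and 10.5 CPM in PBS and 28.8, 25.5 and 23.3 CPM in irisin, a rise of 2.88-fold (LFC 1.53 ± 0.17, adjusted p = 6.20e-05). Ikbkg (NEMO), the regulatory subunit of the IκB kinase, was lower in all irisin libraries but did not pass (148 ± 12.5 CPM in PBS and 118 ± 8.08 CPM in irisin, with LFC -0.33 ± 0.10, adjusted p = 0.0596). It passed with total counts alone, with no low-count filter and without PBS replicate 3 and irisin replicate 1, where Traf3ip2 and Rhbdf2 also passed as higher. Parts of the receptor complex did not pass: Tradd at 29.4 ± 3.84 and 29.6 ± 0.555 CPM (adjusted p = 0.988), Ripk1 at 18.4 ± 0.401 and 17.8 ± 1.23 CPM (0.916) and Casp8 at 41.4 ± 3.61 and 41.2 ± 4.35 CPM (0.990). Map3k14, the gene of NIK, had 8.24 ± 1.64 and 7.84 ± 1.36 CPM (adjusted p = 0.942). Adam17, which sheds TNF and its receptors from the cell surface, had 246 ± 11.2 and 272 ± 5.98 CPM (adjusted p = 0.394).

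Ratios of counts within a library do not depend on how libraries are scaled, and 4 pairs of related members were set side by side in this way, chosen after their values were seen and so without a test. Birc3 over Birc2 was 0.787, 0.890 and 0.697 in PBS and 1.31, 1.53 and 1.51 in irisin. The balance of these 2 genes thus lay below 1 in every PBS library and above 1 in every irisin library. Traf3 over Traf2 was 0.436, 0.546 and 0.447 in PBS and 0.571, 0.719 and 0.732 in irisin, with irisin replicate 1 close to PBS replicate 2. Tnfrsf1b over Tnfrsf1a was 0.274, 0.259 and 0.265 in PBS and 0.354, 0.285 and 0.318 in irisin, although neither gene passed on its own. Tnfrsf23 over Tnfrsf22 was 2.46, 2.68 and 2.15 in PBS and 3.74, 3.03 and 4.97 in irisin. In all 4 pairs the irisin ratios lay above those of PBS. The gene with the higher LFC was put on top in each pair, so this shared direction followed from the choice. These ratios are not corrected for gene length, so each shows a difference between groups and not which gene of a pair has more transcripts.

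**Figure D3:**
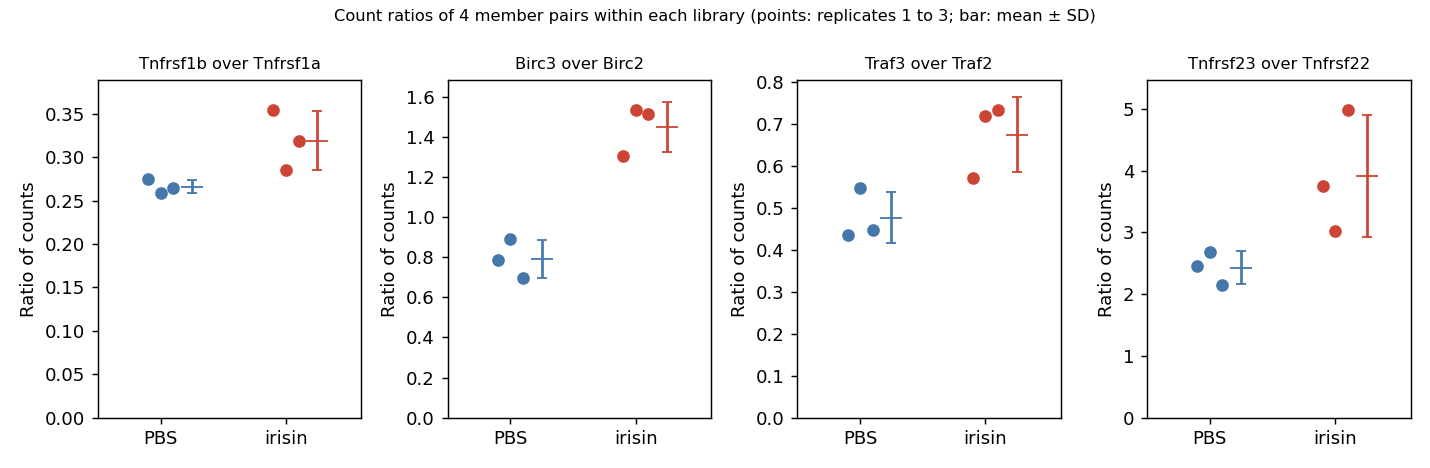
Ratio of counts of 2 members within each library for 4 pairs; points are replicates 1 to 3 from left to right and the bar is the mean with its SD over 3 libraries. In each panel the 3 irisin ratios lie above the 3 PBS ratios, with the widest gap in Birc3 over Birc2 and the narrowest in Tnfrsf1b over Tnfrsf1a. The gene with the higher log2 fold change is on top in each pair, so the shared direction follows from the choice of pairs.

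Levels spanned a wide range. On a scale of CPM per kb of exon, which allows genes of different length to be compared, Tnfrsf1a had the highest mean in PBS (148 ± 24.9, SD, n = 3), followed by Tnfrsf12a (116 ± 11.4), whose range met that of Tnfrsf1a. Then came Tnfrsf11b (47.4 ± 3.67), apart from its neighbours in this order, and Ltbr (31.2 ± 7.74), Traf7 (30.8 ± 1.73) and Tnfrsf1b (26.7 ± 4.62), whose ranges met. Fas followed at 10.1 ± 1.06, with Traf2 (9.33 ± 0.746) and Birc2 (8.08 ± 1.07) not beyond their spread from it or each other in turn. In irisin, Tnfrsf1a (151 ± 19.9) and Tnfrsf12a (87.2 ± 5.04) remained the first members and no longer met in range. Tnfrsf11b (24.0 ± 0.875) then stood beside Fas (23.3 ± 3.33), whose range it met, and behind Traf7, Tnfrsf1b and Ltbr. Of the members ahead of it, it met the range of Ltbr. Tnfaip3 ranked 28 of 30 in PBS (0.858 ± 0.179) and 19 in irisin (3.54 ± 0.331). The highest ligands per kb were Tnfsf9 (4.03 ± 1.23 in PBS, 6.15 ± 0.708 in irisin), Tnfsf12 (3.89 ± 0.530 and 2.89 ± 0.452) and Tnfsf13b (3.35 ± 0.103 and 4.54 ± 0.116). In PBS the ranges of these ligands met.

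Several members lay close together on a chromosome, and such neighbours did not always move alike. Birc3 and Birc2, 11.6 kb apart, had LFC 1.12 ± 0.11 and 0.25 ± 0.13. Ltbr and Tnfrsf1a, 35.5 kb apart on chromosome 6, were both lowest in PBS replicate 3 and irisin replicate 1. This was so in 5 of the 30 tested members (Ltbr, Tnfrsf1a, Tnfrsf18, Tnfsf13 and Traf4), for which both of these libraries lay below the other 4. The share of 16.7% was near that of all genes tested, 14.4%. Both libraries lay above the other 4 for Birc2 alone among the tested members (3.33%, against 12.9% of all genes). Tnfrsf4 and Tnfrsf18 (9.55 kb apart, chromosome 4) and Tnfrsf1b and Tnfrsf8 (20.3 kb, chromosome 4) each paired a tested receptor with one under the filter. Positions follow GENCODE M21 on GRCm38 (mm10). The table holds 1 count per gene, with no split by exon, intron or untranslated region.

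Relatives of the family outside the symbol rule gave no calls. Eda, the gene of the ectodysplasins, had 6.53 ± 3.91 CPM in PBS and 5.44 ± 1.14 CPM in irisin (adjusted p = 0.791), Relt 22.8 ± 0.0227 and 25.2 ± 2.13 CPM (0.668), Rell1 20.9 ± 4.32 and 21.02 ± 0.933 CPM (0.998) and Cd27 1.76 ± 0.748 and 1.24 ± 0.492 CPM (0.697). Cd70, the ligand of CD27, had 2 counts in all 6 libraries.

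**Figure D4:**
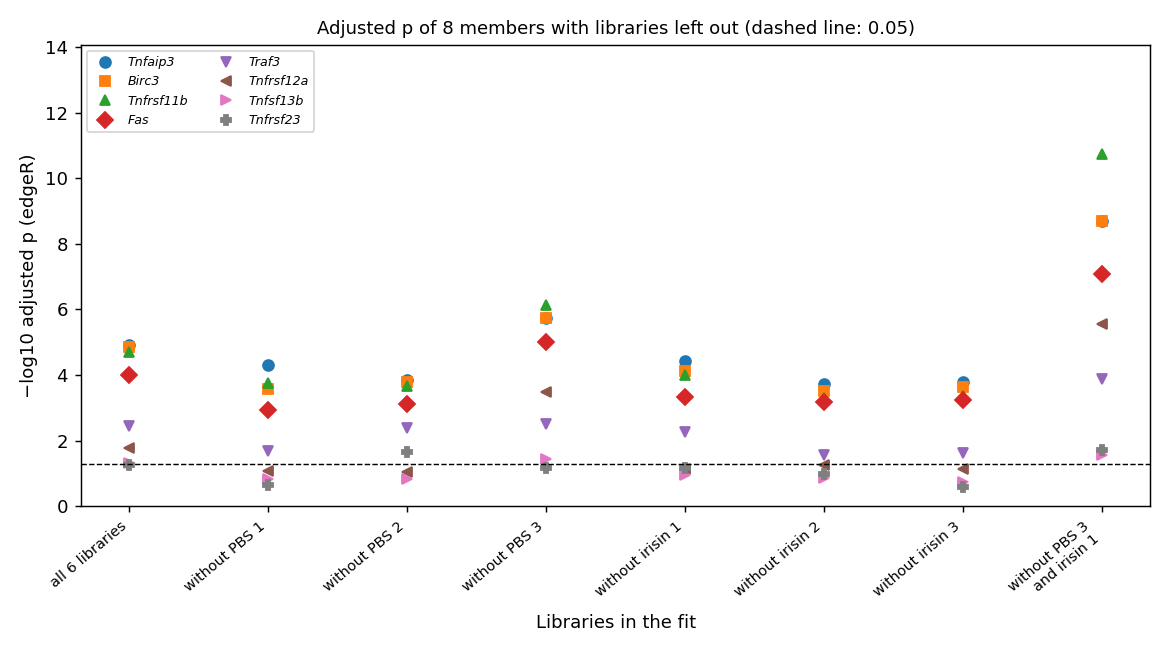
Adjusted p from edgeR, as −log10, for the 7 called members and Tnfrsf23 with all 6 libraries and with libraries left out; the dashed line is the threshold of 0.05. Tnfaip3, Birc3, Tnfrsf11b, Fas and Traf3 stay above the line in each fit shown, while Tnfrsf12a and Tnfsf13b cross it when PBS replicate 1 or 2 or an irisin replicate is left out.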

How the data were processed

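The authors deposited a single table of raw counts by gene symbol, whole numbers with no normalization, for 6 libraries. The tools and build named by the authors, per the submitters' processing notes, are featureCounts, STAR 2.7.3a and mm10; annotation, strand setting and handling of multi-mapping reads: not given in the sources used here. Titles gave each sample its group and replicate number. The 12296 genes that passed filterByExpr (count minimum 10), out of 31436 with any count, were fitted in edgeR 4.0.16 under R 4.3.3 with TMM factors and group as the sole term. The robust quasi-likelihood test was used, with Benjamini-Hochberg adjustment over all of these genes and a threshold of 0.05. The standard error is the absolute log2 fold change over the square root of F. For CPM, a library's size is the sum of its tested genes times its TMM factor. Levels per kb use the union of exons in GENCODE M21, which matched all 52 members.

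Members and lists were chosen with earlier results of these data known. By the naming rule, members past the threshold are given with each library's value, others with a mean of at least 10 CPM with values (group means, or each library's), and the rest by counts. Beyond the rule, and chosen after values were seen, are the CPM values of members with a mean under 10 CPM (each library's for Tnfsf9 and Tnfsf15, group means for others), of relatives and of uncalled downstream genes. No list was tested as a set. The alternatives were other scaling (RLE, upper quartile, or none beyond the totals), other tools (DESeq2 1.42.0, and limma 3.58.1 with voom), non-robust dispersion, both no filter and a minimum of 50, a replicate block, omission of each library, a looser threshold of 0.10, and testing against 1.5-fold. Omitting both PBS replicate 3 and irisin replicate 1 was decided after the data were seen. On simulated data for irisin against PBS (12119 genes tested, 200 changed), 15 of 171 calls were unchanged genes.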

Additional observations from a re-analysis of the deposited data

How the results depend on the processing

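Member counts, 5 higher and 2 lower, kept within 1.5 times under most alternatives. With the replicate number as a block the lower members numbered 1, and against a 1.5-fold change 3 were higher and 1 lower. With a library left out, members numbered 4 to 6 higher and 1 to 2 lower. All genes numbered 336 to 705 higher and 238 to 585 lower in these fits, against 516 and 396 with all libraries. Lower genes numbered 602 with total counts alone and 623 with limma-voom; against a 1.5-fold change 165 were higher and 108 lower. Without PBS replicate 3 and irisin replicate 1, chosen after the data were seen, 892 genes were higher and 788 lower, and downstream genes numbered 4 higher and 1 lower. The downstream list, with 0 lower genes at first, had 1 lower (Ikbkg) with total counts alone, with no low-count filter and at an adjusted p of 0.10. No called member changed its direction under any alternative run, and the cause of lost calls was not tested.

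The replicate block gave 691 called genes against 912. Deviations of same-numbered libraries from their group means correlated at -0.24, 0.16 and -0.18 for numbers 1, 2 and 3. PBS replicates 1 and 3 did not correlate best with their own number. PBS replicate 3 and irisin replicate 1, which stood apart, correlated at 0.36. Deviations within a group of 3 are tied to each other, so these values cannot show whether same-numbered libraries were paired. No label pairs them, and the main fit treats them as unpaired. With total counts alone the median of log2 fold changes over all genes was -0.09, against -0.01. Depth limits the 22 untested members, none with over 11 counts in a library.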
